A study of Homo sapiens with 4 samples.

Results

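MALAT1 and NEAT1 are long noncoding RNAs that stay in the nucleus, and NONO, SFPQ and PSPC1 encode the proteins of one RNA-binding family that gathers on NEAT1. The rows of these 5 genes were taken by gene symbol from the deposited expression table, which lists 14431 genes, and all 5 were found and passed the filter on low values that left 14199 genes to test. The study measured RNA in HGC27 cells, a human gastric cancer cell line. It asked how the transcriptome responds to loss of AARS1, the cytosolic alanyl-tRNA synthetase, which the study describes as an enzyme that also attaches lactate to proteins and acts on the Hippo pathway. Both groups were grown without glucose, in DMEM with 10% fetal bovine serum and antibiotics, and both received 25 mM lactate. The labels give a lactate exposure of 24 h, while the study's text gives a shorter one, so the duration is uncertain. The 2 control libraries are labelled WT and, in the table's column names, NC, which the labels do not spell out. The 2 siAARS1 libraries come from cells in which AARS1 was knocked down with siRNA. Every library thus came from cells given lactate in place of glucose, and 1 cell line was used.

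Each library held between 30653210 and 33522573 reads in the listed genes, and 1 read was worth between 0.0293 and 0.0324 CPM, the unit of the table, in which the reads of a library are scaled to the same total. AARS1, listed under its older symbol AARS, was at 428 and 417 CPM in the control libraries and at 292 and 298 CPM in the siAARS1 libraries, a log2 fold change of −0.52. In this comparison 10032 of the 14199 genes passed an adjusted p of 0.05 (70.7%), 32.6% higher and 38.0% lower in siAARS1, and the groups did not overlap for 85.1% of genes, so a call alone does little to set a gene apart here. Over all genes tested the log2 fold changes had a median of −0.05. Of 7 epithelial markers 3 had a row, CDH1, KRT8 and CLDN4, with a summed level of 8.0 to 30.8 CPM, while EPCAM, KRT18, KRT19 and KRT7 had no row among the genes analysed here. All 4 fibroblast markers had a row and summed to 2098 to 2906 CPM, and 2 of 3 mesenchymal markers, VIM and FN1, summed to 4651 to 5203 CPM, so the defining epithelial markers of a gastric carcinoma were scarce in every library. The 3 endothelial markers and 3 of 4 immune markers had no row. The summed epithelial markers were lower in siAARS1 (9.36 and 8.0 CPM) than in control (30.8 and 30.6 CPM), and all 3 listed were called lower. The fibroblast markers were split, with COL1A1 (−0.57) and COL1A2 (−1.07) lower and LUM (0.84) and DCN (0.11) higher, and their sum of 2174 and 2098 against 2805 and 2906 CPM was mostly COL1A1. The part of these markers in the results below was not tested.

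NEAT1 RNA is the scaffold of paraspeckles, nuclear bodies that hold back certain proteins and RNAs. They are built on its long isoform, and the short isoform is not enough to form them. NONO, SFPQ and PSPC1 belong to the DBHS family (named for Drosophila behaviour and human splicing), pair with one another, and coat NEAT1, which they also keep stable. MALAT1 lies next to NEAT1 on chromosome 11, collects in nuclear speckles, where splicing factors are stored, and associates with splicing factors and active genes. In bulk RNA, fewer cells that express a gene and less of its RNA per cell cannot be told apart.

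The 3′ ends of both RNAs are shown because they set MALAT1 and long NEAT1 apart from ordinary messenger RNAs: RNase P cuts behind an A-rich stretch, the upstream U-rich stretches fold around it as a triple helix, and no poly(A) tail is added. How the libraries selected RNA, by poly(A) or by removal of ribosomal RNA, is not given in the sources used here, so what fraction of each transcript pool was captured is unknown. Both stretches below are 110 bases of the plus strand of GRCh38, read from GENCODE release 29 transcripts and written as DNA. The first capitals mark the longest run that the 2 share, 16 bases that hold a U-rich part, and the last capitals mark the 9 bases at the A-rich end.
MALAT1 chr11:65506007-65506116: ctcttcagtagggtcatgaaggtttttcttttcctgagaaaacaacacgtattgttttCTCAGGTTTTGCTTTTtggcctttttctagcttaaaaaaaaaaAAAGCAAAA
NEAT1 chr11:65445431-65445540: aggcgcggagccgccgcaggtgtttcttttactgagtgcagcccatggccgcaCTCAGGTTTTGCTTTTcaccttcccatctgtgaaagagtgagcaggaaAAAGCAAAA
The NEAT1 stretch is the end of the long isoform NEAT1-202, and the MALAT1 stretch ends 353 bases before the annotated end of MALAT1-202, both within an exon. RN7SK, another nuclear RNA without a poly(A) tail, was at 1.70 and 1.61 CPM in control and at 1.49 and 0.602 CPM in siAARS1. RN7SL1, a further RNA without such a tail, was at 15.84 and 11.25 CPM in control and at 11.79 and 16.42 CPM in siAARS1.

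MALAT1 had the largest fold change of the 5 genes and was higher in siAARS1, whereas its neighbour NEAT1 did not pass the test. MALAT1 (ENSG00000251562, a lincRNA at chr11 65497688 to 65506516 on the plus strand, 8829 bases of exon) was at 16.7 and 14.8 CPM in the control libraries and at 60.8 and 66.1 CPM in the siAARS1 libraries. These levels rest on 568 and 470 reads in control and on 1877 and 2197 reads in siAARS1. The groups lay far apart, and the 2 libraries of a group differed by 1.84 CPM in control and by 5.31 CPM in siAARS1. The mean rose from 15.7 ± 1.3 CPM (SD, n = 2) to 63.4 ± 3.75 CPM (SD, n = 2), 4.03-fold. On the log2(CPM + 1) scale the fold change was 1.95 with a standard error of 0.0693 and a 95% interval of 1.80 to 2.09 (limma, adjusted p = 2.47e-16). Of the 14199 genes tested, 408 had a larger log2 fold change, and among 1068 lncRNA genes MALAT1 came 4th.

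NEAT1 (ENSG00000245532, a lincRNA at chr11 65422774 to 65445540 on the plus strand, 22767 bases of exon) was at 219 and 196 CPM in control and at 189 and 206 CPM in siAARS1. The second siAARS1 library lay between the 2 control libraries, so the groups overlapped. Reads numbered 7482, 6219, 5827 and 6842 in the same order, so the spread was not set by low counts. The mean was 208 ± 16.6 CPM in control and 197 ± 12.1 CPM in siAARS1 (SD, n = 2 each). The log2 fold change of −0.07 had a standard error of 0.0491 and a 95% interval of −0.18 to 0.03 (limma, adjusted p = 0.187), so a change of MALAT1's size lay far outside it. This value turned on 1 library: without control replicate 1 it was 0.0076 (limma, adjusted p = 0.911), and without control replicate 2 it was −0.15 and passed the test (limma, adjusted p = 0.00908).

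The table counts per gene, so the short isoform NEAT1-201 (3441 bases) and the long isoform NEAT1-202 (22743 bases), which share their 5′ part, cannot be told apart. The table's annotation column also gives this row the name MIR612, a microRNA gene that lies within NEAT1, and the row was matched by the symbol in its identifier instead. Without strand information, reads from MALAT1 and from AP000769.2, an antisense lincRNA that covers 396 bases of it in release 29, would be counted alike.

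**Figure D1:**
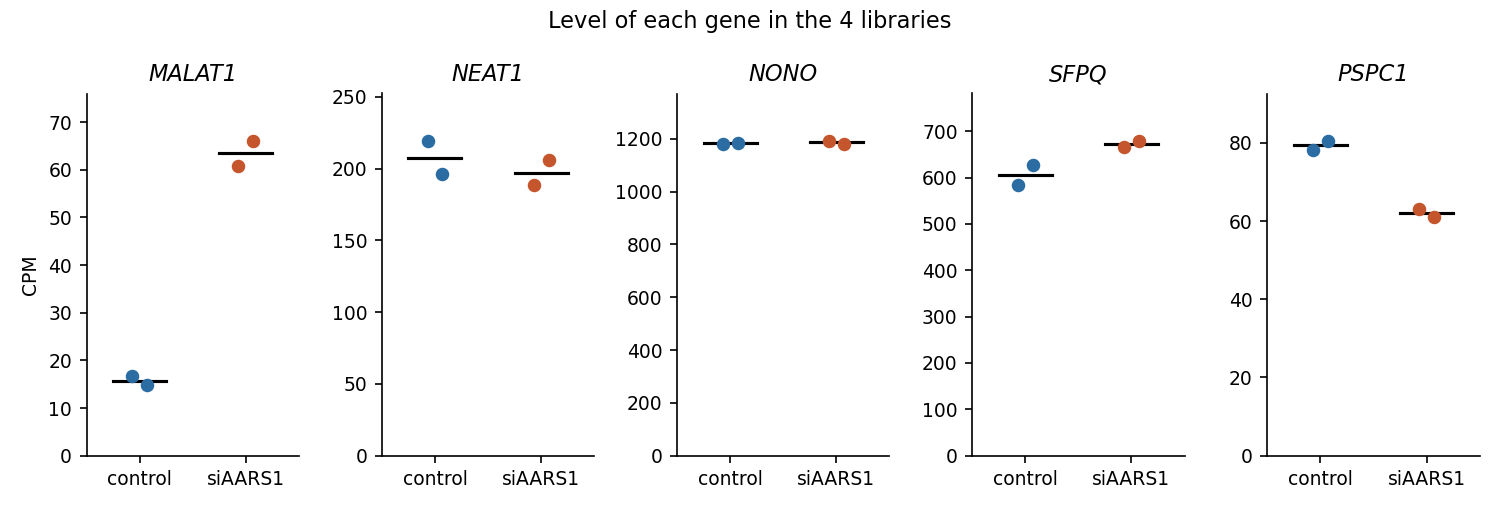
CPM of MALAT1, NEAT1, NONO, SFPQ and PSPC1 in each library (dots; 2 control in blue, 2 siAARS1 in red) with the group mean as a bar, each panel on its own axis from 0. MALAT1 stands at 14.8 to 16.7 CPM in control and 60.8 to 66.1 CPM in siAARS1, while the NEAT1 and NONO libraries of the groups overlap.

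The balance between both lncRNAs was compared within each library, where library scaling cannot act. MALAT1 equalled 7.59% and 7.56% of the NEAT1 CPM in the control libraries and 32.2% and 32.1% in the siAARS1 libraries. The log2 ratio of MALAT1 to NEAT1 went from −3.72 and −3.73 to −1.63 and −1.64, a difference of 2.09, or 4.25-fold. Base composition and length can still act on this ratio. With a smooth trend on both removed, as described below, the log2 fold change of MALAT1 was 0.82. That of NEAT1 was then −1.13 when placed by its long isoform and 0.01 by its short one. The libraries of a group differed by less than the counting error of a single ratio, which was 0.0628 and 0.0690 in control and 0.0383 and 0.0354 in siAARS1 on the log2 scale. MALAT1 and NEAT1 were both higher in the first than in the second control library, and both higher in the second than in the first siAARS1 library. With 2 libraries against 2 an exact two-sided permutation test cannot go below p = 0.333, which is the value it gave for this pair, 0.370 adjusted over all 10 pairs of the 5 genes.

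NONO, SFPQ and PSPC1 shared no direction. NONO (ENSG00000147140, at chrX 71283192 to 71301168 on the plus strand, 5292 bases of exon), which pairs with both other family members and is needed to form paraspeckles, was at 1182 and 1185 CPM in control and at 1193 and 1180 CPM in siAARS1. The groups overlapped and all libraries lay within a narrow band. Its log2 fold change was 0.00 with a standard error of 0.0335 and a 95% interval of −0.07 to 0.07 (limma, adjusted p = 0.922).

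SFPQ (ENSG00000116560, at chr1 35176378 to 35193148 on the minus strand, 7426 bases of exon), a splicing factor and transcriptional repressor that is also needed to form paraspeckles, was at 584 and 627 CPM in control and at 667 and 679 CPM in siAARS1. Both siAARS1 libraries lay above both control libraries, by less than the control libraries lay apart. The log2 fold change was 0.15 with a standard error of 0.0374 (limma, adjusted p = 0.00105), 1.11-fold. Without control replicate 1 the value was 0.10 and missed the threshold (limma, adjusted p = 0.0521).

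PSPC1 (ENSG00000121390, at chr13 19674752 to 19783019 on the minus strand, 4817 bases of exon), the family member by which paraspeckles were first marked and which they can form without, was at 78.2 and 80.6 CPM in control and at 63.1 and 61.2 CPM in siAARS1. Both siAARS1 libraries lay below both control libraries. PSPC1 fell to 78.3% of control, a log2 fold change of −0.35 with a standard error of 0.0481 (limma, adjusted p = 1.51e-06). In release 29 the antisense gene PSPC1-AS2 shares 1133 bases with PSPC1. NONOP2, a processed pseudogene of NONO, was listed at 0.293 and 0.347 CPM in control and at 1.13 and 0.692 CPM in siAARS1, a small fraction of NONO itself.

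Within libraries, the CPM of SFPQ over that of PSPC1 was 7.47 and 7.78 in control and 10.6 and 11.1 in siAARS1, 1.42-fold higher. NONO over PSPC1 was 15.1 and 14.7 in control and 18.9 and 19.3 in siAARS1, and NONO over SFPQ was 2.02 and 1.89 against 1.79 and 1.74. The groups did not overlap in any of these 3 ratios, each with an exact two-sided permutation p of 0.333, the smallest possible. Of the 10 pairs of the 5 genes, 9 did not overlap, beside 85.1% of single genes over all genes tested. The pairs share genes, so they are not separate observations. The exception was NEAT1 over NONO, at 0.186 and 0.165 in control and 0.158 and 0.174 in siAARS1 (exact two-sided permutation p = 0.667). NEAT1 over PSPC1 went from 2.81 and 2.43 to 2.99 and 3.37, and NEAT1 over SFPQ from 0.376 and 0.313 to 0.283 and 0.303, higher against the one and lower against the other in both siAARS1 libraries.

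Per kilobase of exon, NONO had the highest level of the 5. It was at 223.6 ± 0.455 CPM per kb in control and 224.2 ± 1.64 in siAARS1 (SD, n = 2 each). SFPQ followed at 81.5 ± 4.07 and 90.6 ± 1.22 CPM per kb, and PSPC1 at 16.5 ± 0.353 and 12.9 ± 0.282 CPM per kb. NEAT1 was at 9.12 ± 0.727 and 8.66 ± 0.532 CPM per kb, and MALAT1 at 1.78 ± 0.148 and 7.18 ± 0.425 CPM per kb. The order of the 5 levels was the same in both groups. In siAARS1 MALAT1 and NEAT1 came close to each other, with NEAT1 at 8.29 and 9.04 and MALAT1 at 6.88 and 7.49 CPM per kb, a gap slightly wider than the spread of either pair. Among 14027 genes with a length, MALAT1 moved from the 30.4 to the 60.3 percentile of CPM per kb. With the RNA selection unknown, this rank is that of captured reads and need not be that of the RNA in the cells. If all NEAT1 reads came from the short isoform, NEAT1 would be at 60.4 ± 4.81 and 57.3 ± 3.52 CPM per kb and would stand above PSPC1.

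The choice of scaling mattered for the genes with small changes. Dividing each library by its median gene moved the median of all genes to −0.26, and with it NONO to −0.22 (limma, adjusted p = 4.66e-05), NEAT1 to −0.30 (limma, adjusted p = 7.64e-06) and SFPQ to −0.08 (limma, adjusted p = 0.106). Relative to the median of all genes, these values stayed close to those of the deposited CPM. NONO was 0.06 above that median in the deposited scaling and 0.04 above it in the median scaling, SFPQ 0.21 and 0.19 above it, and NEAT1 was at −0.02 and −0.04. MALAT1 was 2.0 and 1.99 above the median, and PSPC1 at −0.29 and −0.31, and both passed the test under every alternative run.

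Fold changes in this comparison went with the base composition of the transcripts. Among the 1209 genes whose longest transcript had a GC content of 40 to 42%, the median log2 fold change was 0.46 and the quartiles 0.08 and 1.02. MALAT1, with 40.3% GC, had a larger fold change than all but 83 of them, or 6.87%. NEAT1 (44.1% GC) and PSPC1 (45.3% GC) fell in the class of 44 to 46%, whose 1028 genes had a median of 0.07 and a lower quartile of −0.17. PSPC1 lay below that quartile, with 88.6% of the class higher, and NEAT1 lay above it. SFPQ (48.8% GC) lay above the upper quartile of its class, 0.09, and NONO (46.7% GC) lay between the quartiles of its own, −0.24 and 0.20.

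A smooth trend of each library's values on GC content and transcript length, removed before the test, took 1.12 from MALAT1 and left a log2 fold change of 0.82 that passed the test. PSPC1 was −0.36 and SFPQ 0.29 with the trend removed, and both passed. For NEAT1 the value depended on the isoform used to place it on the trend, −1.13 (limma, adjusted p = 1.69e-12) with the long isoform and 0.01 (limma, adjusted p = 0.798) with the short one. Only 13 of the tested genes had a transcript longer than NEAT1-202, so the trend rests on few genes at that length. Every other gene was placed by its longest transcript alone. How far its value with the trend removed depends on that choice was not tested. The part of base composition in these changes was not tested beyond this trend.

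**Figure D2:**
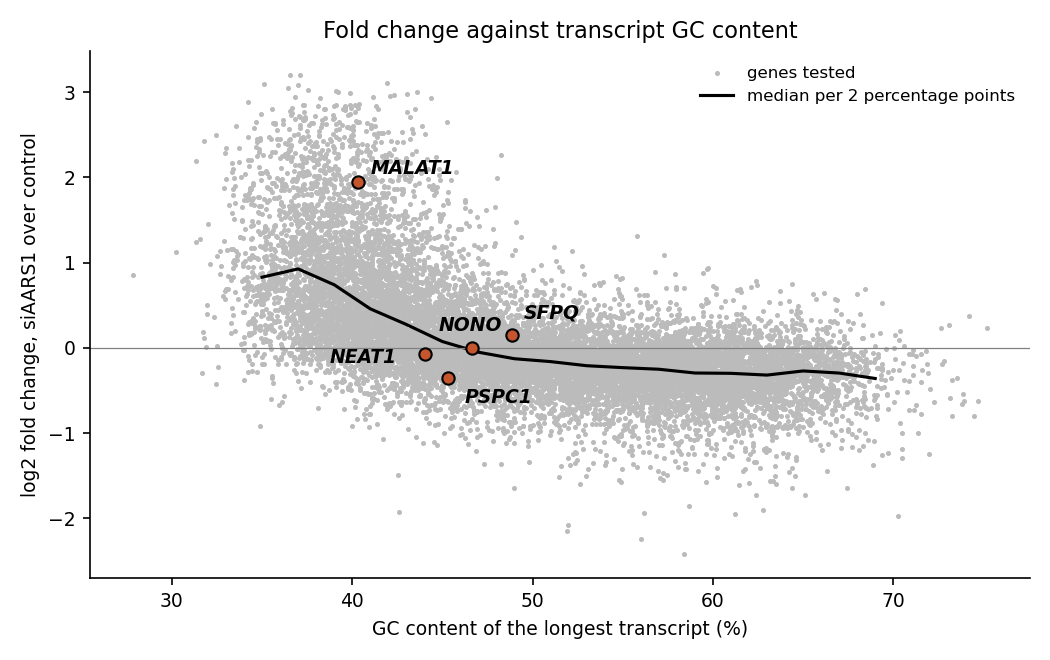
Log2 fold change (siAARS1 over control, log2(CPM + 1) scale) against the GC content of the longest transcript for the genes tested (grey), with the median per class of 2 percentage points (black line) and the 5 genes in red. The line falls with rising GC content over most of the range, and MALAT1 at 40.3% GC and 1.95 stands above it, whereas PSPC1 at −0.35 stands below it.

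**Figure D3:**
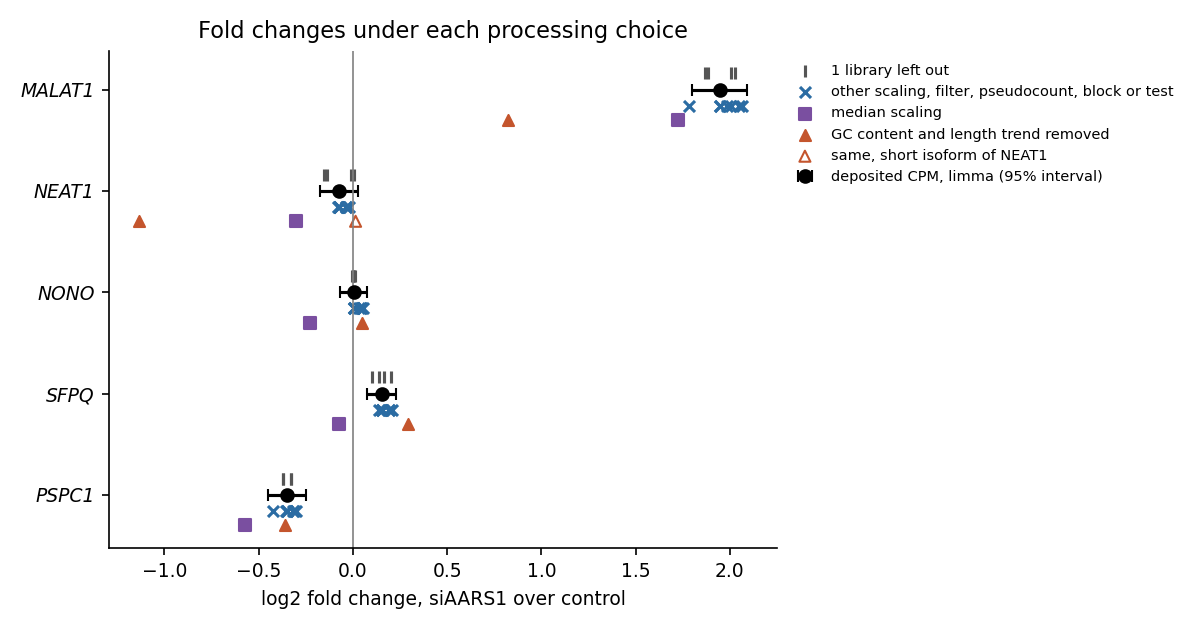
Log2 fold change of each of the 5 genes with its 95% interval (black), with 1 library left out (grey bars), with other scalings, filters or tests (blue crosses), with median scaling (purple squares) and with the trend on GC content and length removed (red triangles, open for the short NEAT1 isoform). MALAT1 stays above 0 throughout, from 0.82 to 2.06, PSPC1 stays below 0, from −0.57 to −0.30, and NEAT1 spans −1.13 to 0.01.

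Genes of the proteins that form and fill paraspeckles were then described from lists of known members. Higher and lower refer to their RNA, and no protein was measured in these libraries. Over all genes tested the median was −0.05, with 32.6% higher and 38.0% lower. With median scaling 3379 of the 14199 genes were higher and 7999 lower, with a median of −0.26. With the GC and length trend removed, 4507 of 13819 genes were higher and 4653 lower, with a median of −0.0076. The counts of each list below are to be read beside these. Of 17 genes listed as paraspeckle assembly proteins, 10 were higher, 5 were lower and 2 did not pass. Not all of the 17 are required, since paraspeckles can form without PSPC1. The 17 include the DBHS family, and their median log2 fold change was 0.15. With median scaling 5 were higher and 8 lower, with a median of −0.08 against −0.26 for all genes. HNRNPH3, an RNA-binding protein of the hnRNP H family, was at 118 and 118 CPM in control and at 187 and 202 CPM in siAARS1 (log2 fold change 0.71). HNRNPR, a further hnRNP, rose by 0.58, as did NUDT21, the small subunit of the cleavage factor that with CPSF6 steers polyadenylation and so the choice between the NEAT1 isoforms. CPSF6, named after its value was seen, was at 0.25.

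Of the 5 that were lower, PSPC1 had the largest change. SMARCB1 (−0.24) and SMARCA4 (−0.18), core subunit and ATPase of the SWI/SNF chromatin remodeller, were also lower, as were HNRNPUL1 (−0.17) and RBM14 (−0.12), the last 2 named after their values were seen. RBM14 holds paraspeckle subunits together and was at 198 and 197 CPM in control and at 179 and 184 CPM in siAARS1. The 2 that did not pass were NONO and DAZAP1 (−0.03), the latter also named after its value was seen. With the trend on GC content and length removed, 10 of the 17 were higher and 5 lower, but many members turned. CPSF6 (−1.11), HNRNPR (−0.89) and NUDT21 (−0.49) were then below 0, while HNRNPH3 stayed above it (0.40). Each was placed by its longest transcript, and other isoforms were not tried. Of the 5 lower genes only PSPC1 (−0.36) stayed below 0, and RBM14 (0.22), SMARCA4 (0.18), HNRNPUL1 (0.13) and SMARCB1 (0.09) were above it.

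Of 22 further genes whose proteins were seen in paraspeckles, 12 were higher, 2 lower and 8 did not pass, beside 32.6% higher and 38.0% lower of all genes. Their median was 0.15. With median scaling 7 were higher and 8 lower, with a median of −0.08 against −0.26 for all genes. HNRNPH1, a splicing regulator, stood at 380 and 378 CPM in control and at 807 and 832 CPM in siAARS1 (1.11). FIGN, an ATPase that severs microtubules, rose by 2.01 from 3.43 and 3.75 CPM, and ZC3H6, a zinc finger protein, by 0.77 from 3.14 and 2.90 CPM, both from low levels. AKAP8L (−0.40), a nuclear anchoring protein, and CIRBP (−0.28), the cold-inducible RNA-binding protein, were the 2 that fell. With the GC and length trend removed, 9 of the 21 that have a GC content were higher and 8 lower. HNRNPH1 (−0.16) and ZC3H6 (−0.41) were then below 0, AKAP8L was at −0.02 and CIRBP at 0.05, and FIGN was still at 0.79.

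All 5 genes of partners of the DBHS proteins were higher, with a median of 0.62. Over all genes 32.6% were higher, with a median of −0.05. With median scaling or with the GC and length trend removed, 4 were higher. MATR3, the nuclear matrix protein that binds RNA with SFPQ and NONO, was at 112 and 120 CPM in control and at 469 and 495 CPM in siAARS1, a log2 fold change of 2.04. TOP1, the topoisomerase that relaxes DNA, was at 68.7 and 72.3 CPM in control and at 167 and 173 CPM in siAARS1 (1.26). HNRNPU, a scaffold protein of chromatin, rose by 0.62 but was at −0.99 with the GC and length trend removed, where MATR3 was at 0.70 and TOP1 at 0.79. XRN2, the nuclear 5′ exonuclease (0.49), and ADAR, which edits adenosines in double-stranded RNA (0.19), were smaller changes and are named after their values were seen.

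Genes whose proteins lie in nuclear speckles, where MALAT1 collects, were mostly higher, 17 of 21 against 1 lower, with a median of 0.40. Over all genes 32.6% were higher and 38.0% lower, with a median of −0.05. With median scaling 11 were higher and 5 lower, with a median of 0.18 against −0.26 for all genes. PRPF4B, a kinase of the spliceosome, was at 19.2 and 18.8 CPM in control and at 112 and 119 CPM in siAARS1 (log2 fold change 2.54). PNN (2.19) and RBM25 (1.90), a speckle and junction protein and a splicing regulator, rose as well. RNPS1, which binds spliced messenger RNA, was the 1 that fell (−0.16), a call lost without control replicate 2, and SON and SRRM2, the proteins that hold speckles together, named after their values were seen, were at 0.81 and 0.22. The median GC content of the 21 was 41.3%, and all 1209 genes of 40 to 42% GC had a median of 0.46. With the GC and length trend removed 11 of the 21 were higher and 8 lower. PRPF4B (1.24), PNN (1.58) and RBM25 (0.72) were still higher and RNPS1 was at 0.02.

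**Figure D4:**
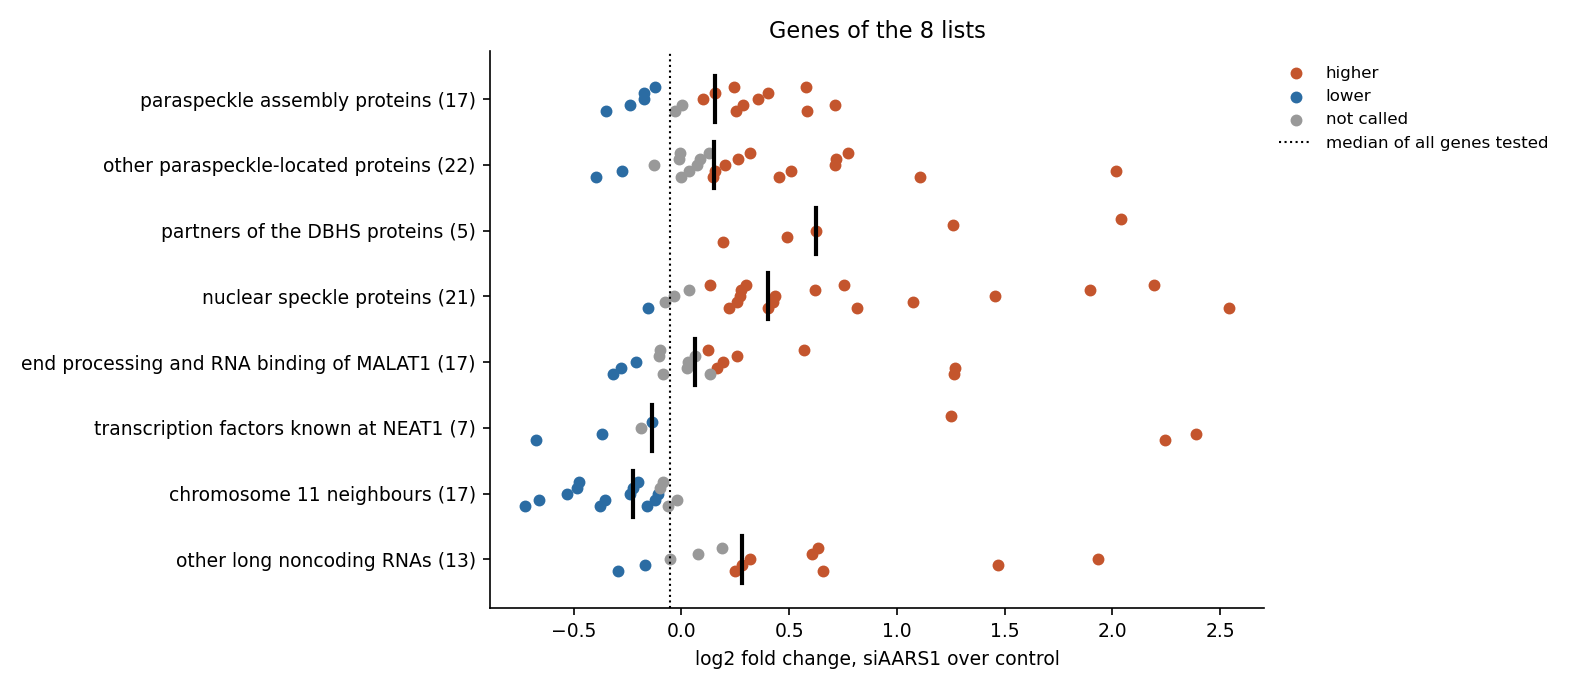
Log2 fold change (siAARS1 over control) of every gene of the 8 lists with the number tested in brackets, coloured as higher (red), lower (blue) or not past an adjusted p of 0.05 (grey), with the list median as a black bar and the median of all genes, −0.05, as a dotted line. The 5 partners of the DBHS proteins all lie above 0, and the 17 chromosome 11 neighbours all lie below it.

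Genes of the enzymes and proteins that make and bind the MALAT1 3′ end showed no shared direction. The 17 genes cover subunits of RNase P, the tRNA 3′ nuclease ELAC2 and proteins that bind or methylate MALAT1. ELAC2 cuts the 3′ end of the released fragment. Of the 17, 7 were higher, 3 lower and 7 did not pass, with a median of 0.06. Over all genes 32.6% were higher and 38.0% lower, with a median of −0.05. With median scaling 3 of the 17 were higher and 9 lower, with a median of −0.16 against −0.26 for all genes. The 3 that fell in the deposited scaling were RNase P subunits, RPP21 (−0.32), RPP25L (−0.28) and POP7 (−0.21). The subunits RPP40 (0.57) and POP1 (0.26) rose, the latter named after its value was seen. ELAC2, named after its value was seen, was at 175 and 168 CPM in control and at 180 and 170 CPM in siAARS1, with overlapping groups. METTL14, a subunit of the m6A methyltransferase, was at 8.36 and 8.51 CPM in control and at 20.9 and 22.4 CPM in siAARS1 (1.26). YTHDC1, the nuclear m6A reader, rose by 1.27 from 32.3 and 32.8 CPM. METTL16, which binds the MALAT1 triple helix, named after its value was seen, was at 0.19. With the GC and length trend removed, 8 were higher and 4 lower, RPP21 was at −0.06, RPP25L at 0.04 and POP7 at 0.10, METTL14 at 0.12, YTHDC1 at 0.31 and RPP40 at 0.48.

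Of 7 genes of transcription factors known to act at the NEAT1 gene, 3 were higher and 3 lower, with a median of −0.14. Over all genes 32.6% were higher and 38.0% lower, with a median of −0.05. NEAT1 itself did not pass the test. HIF1A, the oxygen-regulated factor, was at 23.6 and 24.1 CPM in control and at 123 and 137 CPM in siAARS1 (2.39). BRCA1 (2.25) and ATF2 (1.25) were also higher. STAT3 (−0.68), HSF1 (−0.14), the heat shock factor, and EPAS1 (−0.37, adjusted p = 0.0499 by limma) were lower, the last named after its value was seen. The calls of HSF1 and EPAS1 were not stable: STAT3 was the 1 called lower with TMM scaling, edgeR or DESeq2, and without control replicate 1, control replicate 2 or siAARS1 replicate 2. With the GC and length trend removed HSF1 was at 0.22, also the median of the 7, and 4 were higher and 1 lower, with HIF1A (1.35) and BRCA1 (1.41) higher by less.

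Before removal of the GC and length trend, the genes around both lncRNAs shared neither the size nor the direction of the MALAT1 change. The gap between NEAT1 and MALAT1 spans 52.1 kb, and of 18 protein-coding neighbours 17 had a row. By limma 0 were higher, 13 were lower and 4 did not pass, with a median of −0.23. Over all genes tested 32.6% were higher and 38.0% lower, with a median of −0.05. All 17 lay below 0, so 0 were higher at an unadjusted p of 0.05 either, and edgeR called 0 higher and 10 lower and DESeq2 0 and 9. With median or quantile scaling all 17 were lower, beside 7999 and 6776 of all 14199 genes. SIPA1 (−0.72), SLC25A45 (−0.66) and CAPN1 (−0.53) had the largest changes. The 17 were GC-rich, with a median GC content of 61.3%, and with the GC and length trend removed 9 were higher and 5 lower.

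**Figure D5:**
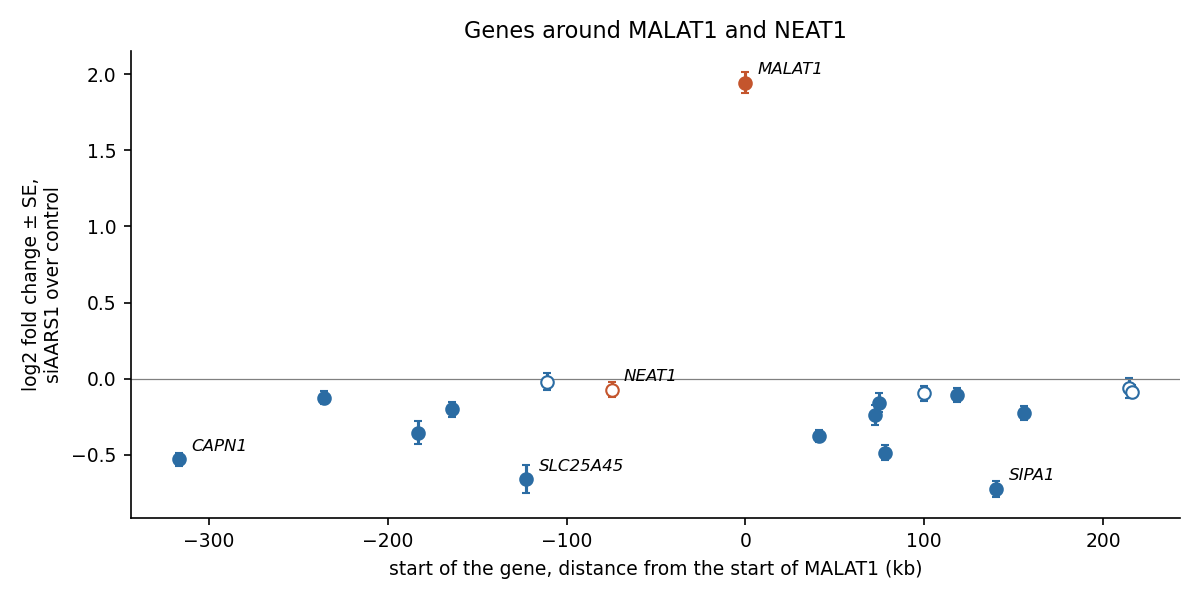
Log2 fold change ± SE (siAARS1 over control) of MALAT1 and NEAT1 (red) and 16 neighbouring genes on chromosome 11 (blue) against the distance of their start from the start of MALAT1 in kb, with open circles for genes that did not pass the test. MALAT1 stands at 1.95, and the neighbours lie between −0.72 and −0.02.

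Among 13 other long noncoding RNAs with a row, 8 were higher, 2 lower and 3 did not pass, with a median of 0.28. Over all 1068 lncRNA genes tested, 227 were higher and 262 lower, with a median of −0.05, so the 13 do not stand for the class. MIAT, FIRRE and MEG3 had no row among the genes analysed here. KCNQ1OT1, the antisense RNA of an imprinted locus, was at 7.95 and 9.08 CPM in control and at 35.1 and 35.3 CPM in siAARS1 (1.93). TUG1 (1.47) and OIP5-AS1 (0.66) were also higher. With the GC and length trend removed KCNQ1OT1 was at 0.36, TUG1 at 0.77 and OIP5-AS1 at −0.69, beside 0.82 for MALAT1. KCNQ1OT1 was placed at 91667 bases, where the trend rests on few genes. GAS5 (−0.30), a host gene of small nucleolar RNAs, and EPB41L4A-AS1 (−0.17) fell, the latter a call lost without control replicate 1 or siAARS1 replicate 1 and with TMM scaling, edgeR or DESeq2. With the trend removed, 3 of the 13 were higher and 6 lower. With median scaling 5 were higher and 3 lower, with a median of 0.05 against −0.26 for all genes.

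The genes most like each of the 5 in pattern over the 4 libraries were found among 11284 genes, by the largest absolute difference between centred log2(CPM + 1) values. For MALAT1 they were CLIP1 (0.0378) and BACH1 (0.0423), the former which went from 6.78 and 6.18 CPM to 26.3 and 28 CPM. For NEAT1 they were the lncRNAs RP11-475C16.1 (0.00646) and LINC00176 (0.0150). The nearest were GTF3C2 and LRP4 for NONO, BOD1 and WNT5A for SFPQ, and WNT11 and FLOT2 for PSPC1, all within 0.0134.

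The study concerns YAP and its DNA-binding partner TEAD, so GGAATG, the core that TEAD factors bind, was counted on both strands of RefSeq promoter windows of GRCh38.p14, 250 bases before to 50 bases after a start. None of the 4 windows of MALAT1, NONO and PSPC1 held it, against 14.0% of 35116 windows, which says only that these letters are absent from these windows. NEAT1 and SFPQ had no entry.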

How the data were processed

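RNA-seq libraries of HGC27 cells, 2 control and 2 siAARS1, were read from 1 table of CPM values deposited by the authors. The submitters' processing notes name RSEM 1.3.3 and hg38. The annotation, strand setting and RNA selection are not given in the sources used here. The table also holds the authors' comparison columns (fold changes and p-values), which were not used. It lists genes that reach 1 CPM in at least 1 library. All values were whole multiples of 1 read within 0.0006 CPM (100%), so reads were recovered. Library sizes behind the CPM exceeded the listed sums by 0.749 to 1.89%. Floors of 3 reads (0.0880 to 0.0971 CPM) cover counting error only. Groups come from GEO's labels, and nothing there says that the libraries of a group are separate cultures, so p-values measure only the spread between these samples.

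Log2(CPM + 1) values were kept for genes averaging 1 CPM or more in 1 group and fitted with limma 3.58.1 (R 4.3.3, moderated with a trend), with Benjamini-Hochberg adjustment over 14199 genes and a threshold of 0.05. Fold changes on this scale understate changes of low genes. Alternatives used edgeR 4.0.16 (quasi-likelihood, 9806 genes called) and DESeq2 1.42.0 on recovered reads, other scalings, filters and pseudocounts, a smooth trend on GC content and length (mgcv 1.9.3), a replicate block, and each library left out. Gene positions, lengths and GC content come from GENCODE release 29 on GRCh38, which matched 97.2% of genes. The fitting was run on simulated counts with few genes changed and no trend on base composition. These data differ in both, so that run does not bear on the scaling or the trend. Permutation tests used scipy 1.17.1.

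Genes were named as follows: the 5 genes themselves, AARS1, up to 3 genes of each list per direction with the largest change past the threshold, at least 5 CPM and no overlap of groups, and the 2 genes most like each of the 5. The 5 genes and the lists were chosen with earlier results of these data known. Values of 1 neighbouring gene are not reported here.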

Additional observations from a re-analysis of the deposited data

How the results depend on the processing

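The limits of these data are 2 libraries a group, a single siRNA comparison in 1 cell line, gene-level values and an unknown RNA selection. MALAT1 and PSPC1 kept their direction and passed the test under all alternatives, MALAT1 from 0.82 to 2.06 and PSPC1 from −0.57 to −0.30. NEAT1 passed with median scaling (−0.30) and with the GC and length trend on its long isoform (−1.13, also −1.13 with the replicate block added), was 0.015 on its short isoform, an alternative chosen after seeing the data, and ranged from −0.15 to 0.0076 with 1 library left out, control replicate 2 and control replicate 1. NONO was −0.22 with median scaling, and from −0.0035 to 0.011 with 1 library left out. SFPQ was −0.075 with median scaling, and from 0.10 to 0.20 with 1 library left out, missing the threshold without control replicate 1. The log2 ratio of NEAT1 to NONO changed by −0.16 to 0.0058 with 1 library left out, the latter without control replicate 1. Per kb of longest transcript in place of all exons, control and siAARS1 levels were 368.1 and 369.1 CPM for NONO, 161.6 and 179.6 for SFPQ, and 33.0 and 25.8 for PSPC1. These levels per kb differ from those per kb of exon only by the length that divides them. The cause of the other shifts was not tested.

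Of all calls, 46.2% were higher in siAARS1, against 29.7% with median scaling, and the number called stayed within 1.5 times of 10032 in all alternatives, from 8355 (DESeq2) to 11378 (median scaling). The labels do not say that equal replicate numbers mark shared cultures, and with 2 numbers the deviations of same-numbered libraries correlated at 0.118 over 14199 genes. Blocking on the replicate number gave 10389 calls, and NEAT1 stayed at −0.07 (limma, adjusted p = 0.0940), MALAT1 at 1.95. The number called in each of the 8 lists stayed within 1.5 times, but the split into higher and lower moved in several lists with median scaling and with the GC and length trend, and for the transcription factors at NEAT1 the number lower went from 3 to 1 with TMM, edgeR, DESeq2, an adjusted p of 0.01 or any 1 library but siAARS1 replicate 1 left out. At these depths counting noise is small for all 5 genes, the lowest count being 470 reads for MALAT1.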

Other observations

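LncRNA genes as a class, typed by GENCODE release 29, were taken up after values were seen. Of 1068 tested, 227 were higher and 262 lower in siAARS1, and 579 did not pass, against 4157, 4968 and 3184 of 12309 protein-coding genes. The median log2 fold change was −0.05 for lncRNA genes and −0.06 for protein-coding genes. At least 2-fold changes were mostly upward among lncRNA genes, 39 against 6, as among protein-coding genes, 1429 against 220. With at least 5 CPM in 1 group, the lncRNA genes above MALAT1 by log2 fold change were RP11-588K22.2 (2.58), RP11-373L24.1 (2.37) and LINC00641 (1.96), each from a lower level than MALAT1. The largest decrease was that of HOXA-AS2, at 9.53 and 10.4 CPM in control and at 3.14 and 3.76 CPM in siAARS1 (−1.30), followed by RP11-558F24.4 (−1.15). The 6 lncRNA genes with the largest increases had GC contents of 34.6% to 44.7%, and the 4 with the largest decreases 54.5% to 62.6%. The part of base composition and of level in these differences was not tested.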
